A study of Homo sapiens with 24 samples.

Results

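The transcripts described here came from the genes of potassium, voltage-gated calcium and voltage-gated sodium channels, taken by gene symbol (KCN followed by a letter, CACNA, CACNB, CACNG, or SCN followed by a digit, without KCNJ11). GENCODE 44 held 135 such protein-coding genes. The 6 deposited lists of m6A peaks held 1139 peaks named for at least 1 of them, out of 228472 peaks in all. Of these, 1074 had bases on an exon of the channel gene itself and were used throughout. The other 65, on 10 genes, lay outside the exons of the channel gene, most of them on SCN2A (14), KCNJ14 (13), KCNMB3 (11) and KCNRG (9), and were set aside. Peaks were found for 117 genes. Among the 18 without any peak were CACNA1F, KCNA3, KCNA7, KCNA10, KCNG4, KCNH4, KCNIP2, KCNJ9, KCNJ18, KCNK4, KCNK7, KCNK15, KCNK18, KCNMB1, KCNS2, KCNV2 and SCN2B. KCNJ12 and KCNJ18 are nearly identical in sequence, so which of them reads came from is uncertain. The symbols also take in channels that are not gated by voltage (KCNJ, KCNK and KCNN genes) and proteins that only accompany a channel (KCNE, KCNIP, KCNAB and KCNRG genes), so the set is called ion channel transcripts below.

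The cells were MEL1 INS GFP/W, a human embryonic stem cell line kept on CF1 feeder cells, and its derivatives in culture. The line is a reporter in which GFP is driven by the endogenous insulin promoter, and all groups share it. In batch 1, m6A-seq was made from mRNA with the SYSY antibody for undifferentiated cells (hPSC), for definitive endoderm (DE), for progenitors of the pancreas (PP) and for islet-like organoids of human cells (hILO), which followed each other in media with activin A and CHIR99021, then KGF, then retinoic acid, LDN-193189, GDC-0449 and EGF, then aggregate culture in islet media. In batch 2, made from total RNA with another antibody and library kit, pancreatic progenitors of wild-type cells (WT PP) were set beside those of a line with a CRISPR-Cpf1 knockout of ALKBH5, an m6A demethylase (A5-KO PP). The knockout cells came from picked clones, and the labels do not say which clone was sequenced. Each population had 2 immunoprecipitated (IP) and 2 input libraries, 24 in all, but its peak list gave 1 pooled input count and 1 pooled IP count per peak. No spread between replicates could therefore be computed and no difference between populations was tested. Errors given as ± are counting errors of a log2 ratio (1 standard error from the pooled counts), and bracketed ranges are Wilson 95% intervals that cover counting only.

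The 6 lists differed in depth. Read numbers of genes and peaks are given as deposited and not scaled to depth unless stated. Over the peaks of all protein-coding genes, input reads summed to 6924484 for hPSC, 10759151 for DE, 6211832 for PP and 25000086 for hILO, and in batch 2 to 17557423 for WT PP and 10857326 for A5-KO PP. Markers separated the stages in part. From hPSC to hILO, 3, 3, 2 and 1 of 4 pluripotency genes had a peak (with 329 and 377 input reads per 1000000 over coding peaks in hPSC and DE), 1, 4, 2 and 2 of 4 endoderm genes, 2, 0, 4 and 4 of 5 progenitor genes and 5, 4, 5 and 12 of 15 islet endocrine genes. Both lists of batch 2 had all 5 progenitor genes. The peaks of ALKBH5 held 289 input and 836 IP reads in WT PP, and 1 input and 592 IP reads in A5-KO PP, with 382 to 2753 input reads in the 4 stages. The edit was made at the first exon and need not remove the RNA, so these values do not check the genotype labels.

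m6A is a methyl group on adenosine inside mRNA. It is written by a METTL3 and METTL14 complex, mostly at DRACH sequences (A, G or T, then A or G, then A, C, and A, C or T) in long coding exons and around stop codons, and it is read by proteins that affect splicing, translation and decay. Islet β cells fire calcium-dependent action potentials: closure of potassium channels depolarises the membrane, voltage-gated sodium and calcium channels open, calcium entry releases insulin, and delayed rectifier and calcium-activated potassium channels end each spike. A peak can be listed only where the transcript is present and covered, so a peak that appears may follow from more transcript, more methylation or more reads, and in cultures of several cell types fewer cells of a type and less RNA per cell cannot be told apart.

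The sequences that carry the main results are given first, read from GRCh38 along the spliced transcript, 5′ to 3′. In the coding peaks the capitals mark every DRACH. The first set shows peaks on transcripts that had no peak before the organoids. KCNK17 and KCNK16 are 2-pore potassium channels that lie next to each other on chromosome 6, KCNJ6 and KCNJ16 are inward rectifiers whose peaks sat at the end of the coding sequence, and CACNA1G forms a T-type calcium channel. The KCNK17 peak spans 2 exons at chr6:39310931-39314181, minus strand. The KCNJ6 peak is chr21:37625173-37625222, minus strand. The KCNJ16 stretch is chr17:70133269-70133341, plus strand, the coding part of a peak that runs past the stop codon. The CACNA1G peak is chr17:50626438-50626637, plus strand.
KCNK17: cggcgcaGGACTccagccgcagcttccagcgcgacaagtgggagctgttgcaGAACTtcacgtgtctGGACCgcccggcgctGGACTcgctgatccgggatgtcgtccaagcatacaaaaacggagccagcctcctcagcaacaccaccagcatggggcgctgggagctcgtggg
KCNJ6: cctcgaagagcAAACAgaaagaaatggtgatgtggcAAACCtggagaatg
KCNJ16: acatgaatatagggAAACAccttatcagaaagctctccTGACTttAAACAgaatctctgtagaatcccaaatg
CACNA1G: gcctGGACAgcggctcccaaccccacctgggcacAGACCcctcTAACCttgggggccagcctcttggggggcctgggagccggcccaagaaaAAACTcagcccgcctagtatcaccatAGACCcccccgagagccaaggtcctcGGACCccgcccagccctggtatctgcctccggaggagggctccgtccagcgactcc

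For 2 further peaks of the neighbouring pair, only the 21 bases around a GGAC, the most common DRACH core, are printed, with GGAC in capitals. They are chr6:39299424-39299444 on KCNK17 and chr6:39314861-39314881 on KCNK16, both on the minus strand.
KCNK17 site: tgtggcaaGGACagctagtta
KCNK16 site: aagctcatGGACaagtggcaa

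The second set shows peaks found in hILO and in no earlier stage on transcripts that did have another peak before. CACNA1D (3 exons within chr3:53731085-53732860, plus strand) and CACNA1A (chr19:13208794-13208993, minus strand) form L-type and P/Q-type calcium channels. KCNJ3 is an inward rectifier opened by G proteins (chr2:154709666-154709740, plus strand), and its peak, the one with the most input reads among the channel peaks of hILO, held no DRACH.
CACNA1D: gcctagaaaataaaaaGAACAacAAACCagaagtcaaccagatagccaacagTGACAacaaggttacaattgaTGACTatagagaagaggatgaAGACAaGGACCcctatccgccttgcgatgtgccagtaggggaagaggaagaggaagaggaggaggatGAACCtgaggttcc
CACNA1A: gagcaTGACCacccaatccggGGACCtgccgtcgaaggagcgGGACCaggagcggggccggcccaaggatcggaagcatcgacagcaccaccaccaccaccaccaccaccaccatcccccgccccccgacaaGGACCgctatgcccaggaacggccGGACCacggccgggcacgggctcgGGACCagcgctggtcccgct
KCNJ3: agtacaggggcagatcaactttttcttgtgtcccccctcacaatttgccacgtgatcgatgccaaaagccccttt

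The third set shows organoid peaks that overlapped earlier ones. KCNJ13 (chr2:232768194-232768271, minus strand, the coding part of the peak), SCN9A (chr2:166272413-166272487, minus strand) and KCNS3 (chr2:17931786-17932010, plus strand) were covered in some of the earlier stages. The KCNJ13 stretch is dense in DRACH, with the last bases of the coding sequence holding 2 overlapping matches.
KCNJ13: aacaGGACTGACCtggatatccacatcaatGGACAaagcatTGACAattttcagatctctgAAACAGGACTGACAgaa
SCN9A: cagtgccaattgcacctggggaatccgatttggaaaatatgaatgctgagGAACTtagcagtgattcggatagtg
KCNS3: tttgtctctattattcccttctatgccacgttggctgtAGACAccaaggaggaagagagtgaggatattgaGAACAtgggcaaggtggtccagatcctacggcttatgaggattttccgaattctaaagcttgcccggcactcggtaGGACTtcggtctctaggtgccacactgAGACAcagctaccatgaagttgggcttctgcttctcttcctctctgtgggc

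Across the stages, channel transcripts with a peak fell from hPSC to PP and were more numerous again in hILO. Of the 135 genes, 64 (47.4%) had a peak in hPSC and 55 (40.7%) did in DE. The number was 35 (25.9%) for PP and 57 (42.2%) for hILO. Over all 20046 protein-coding genes the shares were 58.1%, 54.8%, 49.9% and 55.6%. The channel share was below the share of all coding genes in each of these 4 lists, and the gap was widest in PP. The channel peaks numbered 163, 140, 76 and 135. These lists also hold peaks of weak p-values: at p below 1e-05, the threshold of the methods, channel peaks numbered 82, 63, 32 and 127 on 46, 38, 23 and 56 genes. With a minimum of 50 input reads they numbered 72, 78, 36 and 112 on 44, 40, 24 and 53 genes. PP was lowest under both, but hILO and not hPSC then had the most peaks and the most genes. In batch 2, 66 genes (48.9%, beside 61.0% of all coding genes) had 188 peaks in WT PP, and 97 genes (71.9%, beside 68.0%) had 372 peaks in A5-KO PP. Of 93 genes with a peak in any stage, 17 were in all 4 stage lists (18.3%, beside 55.0% over all coding genes), and of the 117 with a peak in any list, 14 were in all 6 (12.0%, beside 43.4%): CACNA1H, CACNB2, CACNB3, KCNG1, KCNH8, KCNIP4, KCNJ10, KCNJ13, KCNK5, KCNMB3, KCNMB4, KCNS3, KCNT2 and SCN8A.

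**Figure D1:**
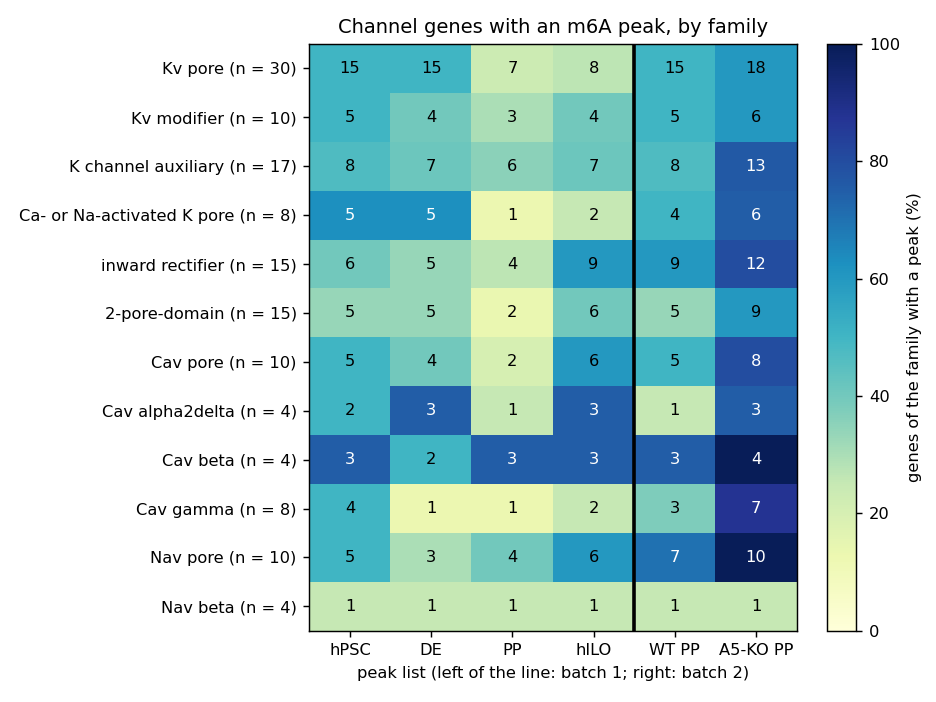
Number of genes with at least 1 peak in each of the 6 populations (columns) for the 12 groups of channel genes (rows, with the number of genes in the group). Pore-forming Kv genes went from 15 in hPSC and DE to 7 in PP and 8 in hILO, while inward rectifiers were most numerous among the stages in hILO, with 9 of 15.

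The families did not follow one pattern. Of the 30 pore-forming Kv genes, which encode the voltage-gated potassium channels that repolarise a cell, 15 had a peak in hPSC and 15 in DE, but 7 did at the PP stage and 8 in hILO. Of the 15 inward rectifier genes, which set the resting potential, 6, 5, 4 and 9 had a peak in these stages. Of the 15 genes of 2-pore-domain channels, which carry background potassium current, 5, 5, 2 and 6 did. The 10 calcium channel pore genes went from 5 in hPSC to 2 in PP and 6 in hILO, and the 10 sodium channel pore genes from 5 in hPSC over 3 and 4 to 6 in hILO. Hence hILO had more genes with a peak than hPSC among inward rectifiers, 2-pore-domain channels, and the pores of calcium and sodium channels, and fewer among Kv pores and among the 8 calcium- or sodium-activated potassium pores (5, 5, 1 and 2). It also had more among α2δ calcium channel subunits (3 beside 2). Fewer had one among Kv modifier subunits (4 beside 5), auxiliary potassium channel proteins (7 beside 8) and calcium channel γ subunits (2 beside 4).

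Of the 57 transcripts with a peak in hILO, 14 (24.6%) had none in hPSC, DE and PP. Over all coding genes with a peak in hILO this share was 6.98%. The 14 were 4 background potassium channels (KCNK3, KCNK9, KCNK16 and KCNK17), 2 inward rectifiers (KCNJ6 and KCNJ16), the delayed rectifier KCNB2, the large-conductance calcium-activated channel KCNMA1, the auxiliary proteins KCNE4 and KCNIP1, the T-type calcium channel CACNA1G, the accessory calcium channel subunit CACNA2D4, and the sodium channel genes SCN2A and SCN7A. Together they had 32 peaks. SCN2A counts among them because peaks off its exons were set aside: 1 such peak, with 41 input reads, was named for it in PP. KCNK16, KCNK17 and CACNA1G had no peak in any other list, whereas 11 of the 14 had one in A5-KO PP and 4 in WT PP.

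By input reads per exonic kilobase of peak, KCNK17 was highest among the 14, at 12400, with 10509 input and 21284 IP reads over 5 peaks and log2 enrichments of 0.60 to 1.32. Its neighbour KCNK16, whose channel passes background potassium current in islet cells, had 1056 input and 2279 IP reads over 2 peaks, at 0.71 and 1.18. KCNJ6 followed KCNK17 at 7620 reads per kilobase. Its 2 peaks were also named for DSCR4, a neighbouring gene, so KCNJ6 had no hILO peak named for it alone. They held 1715 input and 6824 IP reads at log2 enrichments of 2.13 and 2.63, and nearly all of the input reads (1698) lay in a stretch of 50 bases centred 37 bases before the stop codon. KCNJ16 had 643 input and 2387 IP reads, and its peak across the stop codon reached 2.13 ± 0.07. KCNK17 thus had the most reads of the 14 at low enrichment, and both inward rectifiers had fewer reads than KCNK17 and higher enrichment.

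KCNMA1 had 1 peak in its 3′UTR, with 606 input and 842 IP reads and an enrichment of 0.83 ± 0.08. KCNE4, a small subunit that inhibits Kv channels, had 4 peaks with 1399 input reads at 0.59 to 1.11. CACNA1G had 513 input and 1588 IP reads in a coding peak (1.61 ± 0.15) and one in the 3′UTR (1.41). CACNA2D4 had 1 peak over several exons with 252 input reads at 1.18. SCN2A, which carries sodium current in neurons and islet cells, had 489 input reads in 3 peaks close to its stop codon, at 0.99 to 2.91, which were likewise named for a second gene. KCNK9 had 1 peak with 120 input reads at 0.86.

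The remaining 4 of the 14 had the fewest input reads per exonic kilobase, 149 to 794. KCNIP1, a calcium-binding partner of A-type Kv channels, had 470 input and 1591 IP reads over 3 peaks in its 3′UTR, the lowest at 1.40. KCNB2 had 321 and 1022 reads over 2 peaks, SCN7A, which encodes an atypical sodium channel that responds to sodium concentration, had 112 and 378, and KCNK3 had 74 and 276.

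**Figure D2:**
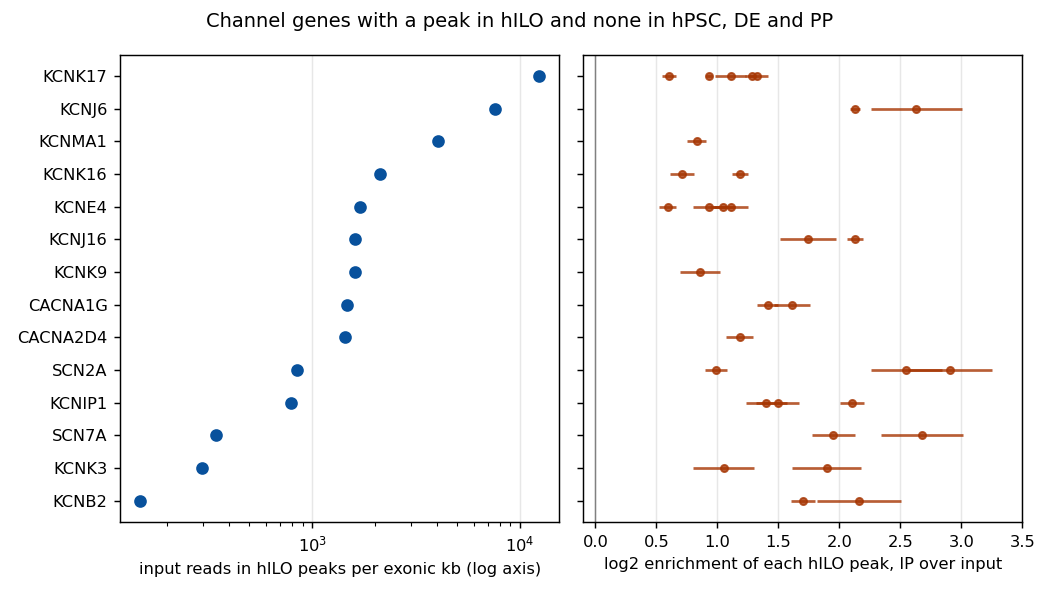
Input reads in hILO peaks per exonic kilobase (left, log axis) for the 14 channel genes with a peak in hILO and none in hPSC, DE or PP. The right side shows the log2 enrichment of each of their hILO peaks, with its counting error. On the left KCNK17 stands highest at 12400 and KCNB2 lowest at 149.

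Depth differed along with this onset. The hILO list had 4.02 times the PP input reads over coding peaks. Scaled to the PP total, the 14 genes' input reads would have been 2610 for KCNK17, 426 for KCNJ6, 348 for KCNE4 and 262 for KCNK16, and as few as 18.4 for KCNK3, 27.8 for SCN7A and 29.8 for KCNK9, with 11 of the 14 at 50 or more. Under the 13 other settings tried, 10 to 19 transcripts appeared first in hILO. At p below 1e-05 there were 19, 13 of them among the 14. At p below 1e-10, 8 of the 14 were left beside 11 others, and at a ratio of IP to input of 3 or more, 8 beside 2. The ones that appeared first in hILO under each setting were 5 (CACNA1G, KCNB2, KCNIP1, KCNJ16 and SCN7A). Depth, transcript level and methylation were not separated, since no level apart from the peaks was analysed here.

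Markers of some other cell types also had peaks in the organoids. Depth differed between the lists, so summed input reads of each marker list are given per 1000000 input reads over all coding peaks, in stage order. The islet endocrine list was at 944, 1990, 1010 and 2880, with INS at 49368 deposited reads in hILO. The enterochromaffin list, 4 of 4 genes with a peak, was at 879 in hILO and 0 in each earlier stage (TPH1 at 13681 reads), and the liver list, 5 of 5, at 2420 after 0, 52.7 and 22.4 (APOA1 at 38393 reads). These 3 lists were highest in hILO. Without INS the islet list was at 907 in hILO, below each earlier stage. Most of its reads in the earlier stages were on CHGB, which had 6149, 21249, 4876 and 4733 deposited reads in stage order. Among the stages, GCG, SST, PCSK2 and ISL1 had peaks in hILO alone, with 4588 reads for SST and 6636 for PCSK2. CHGA and SCG2 had the most reads in PP, and GHRL had a peak in DE alone among the stages. The neuron list, with 7 of 11 genes in hILO, was at 611, 231, 101 and 224, and so higher in hILO than in PP but lower than in hPSC. STMN2 was its one gene without an earlier peak, and ELAVL4, MAP2, TUBB3 and RBFOX3 were at 0 in hILO. The mesenchyme list, with 4 of 5 genes, was at 221, 135, 365 and 163, lower in hILO than in PP, and the cardiac list was at 0 in hILO. Bulk lists do not show in which cells these genes were expressed, and the part of other cell types in the onset of channel peaks was not tested.

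Channel transcripts also lost peaks by the organoid stage. Of 79 genes with a peak in hPSC, DE or PP, 36 had none in hILO (45.6%, beside 22.2% over all coding genes). They included 12 Kv pore genes and 5 of the calcium- or sodium-activated potassium pores (KCNN1 to KCNN4 and KCNT1). KCNK12 had the most reads before, 205 input reads in 4 hPSC peaks and 3492 in 8 DE peaks. KCNN1, a small-conductance calcium-activated channel, had 1937 in 6 hPSC peaks and 1705 in 4 DE peaks, and KCNK6 had 1589 in 7 and 1566 in 5. None of these 3 had a peak in PP or hILO. KCNK1 had 190, 1490 and 146 input reads in hPSC, DE and PP.

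Peaks new to the organoids were found on transcripts with earlier peaks as well. Of 135 channel peaks in hILO, 74 had no more than 50% of their exonic length covered by the peaks of any earlier stage and counted as new (54.8%, 46.4 to 63.0). Over all coding peaks of hILO the share was 29.1%. Of the 74, 32 were on the 14 onset genes and 42 on 19 genes with an earlier peak. Among the 42, 8 peaks on 7 genes (CACNA1A, CACNG4, CACNG5, KCNH7, KCNJ8, KCNK13 and KCNMB3) overlapped an earlier peak over no more than 50% of their own length, and so were wider than it or shifted. The other 34, on 16 genes, overlapped none. Without any overlap were thus 66 of the 135 channel peaks (48.9%, beside 21.6% over coding peaks). The new peaks had a median of 264.5 input reads in hILO, beside 209 for the other hILO peaks, and 60 had at least 50. How well the same places were covered in the earlier lists was not measured. The median log2 enrichment of the new peaks was 1.51, beside 1.73 for the other hILO peaks. Between successive stages, 52.1% of the channel peaks in DE were covered in hPSC (66.8% over coding peaks), 46.1% of those in PP were covered in DE (58.0%), and 22.2% of those in hILO were covered in PP (46.3%).

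CACNA1A, a P/Q-type calcium channel that triggers exocytosis, had 8 peaks in hILO with 2258 input reads, all 8 new, after 22 input reads in 3 hPSC peaks, 6 in 1 DE peak and none in PP. All 4 of these earlier peaks lay inside 2 of the 8, which were covered to 40.5% and 28.6% and counted as new by their greater length, and the other 6 overlapped no earlier peak. SCN3A, a sodium channel of fetal neurons and islets, had 6 new peaks with 3272 input and 6923 IP reads, after 1 PP peak with 33 and 96. KCNJ3 had 4 new peaks with 12775 input reads, 11285 of them in the 75-base peak printed above, whose log2 enrichment was 2.34 ± 0.02, and 1 earlier peak in DE with 115. CACNA1D, an L-type calcium channel, had 3 new peaks among 4, the printed one at 1.96 ± 0.08, and its 1 older peak was in the 3′UTR, where hPSC (20 input reads) and PP (30) also had one. KCNH7 had 3 new among 4, 1 of which contained 2 PP peaks over 50% of its length. In CACNA2D3, an accessory calcium channel subunit, a single new peak held 9199 input reads, and another peak of the transcript held 39107 in hPSC and 3123 in DE.

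Other channels known from islets gave a mixed picture. CACNA1C, the other main L-type channel of β cells, had 1 peak in hPSC (12 input reads) and 1 in hILO (16), and 7 in A5-KO PP. CACNA2D1 had 1 peak in DE (34 input reads, 1.99 ± 0.30) and the same one in hILO (154 input reads, 1.94 ± 0.14). KCNQ1 had 1 peak in each stage, with 13, 318, 208 and 297 input reads, and the DE, PP and hILO peaks covered the same junction of exons at 1.27 ± 0.10, 2.39 ± 0.11 and 1.95 ± 0.09. KCNH2 and KCNH6, channels of the ERG type, had peaks in hPSC and DE but not in PP and hILO, and KCNH2 then had 2924 input reads in WT PP and 2316 reads without ALKBH5. SCN3B, an accessory sodium channel subunit, had 3, 2 and 3 from DE to hILO, all in the 3′UTR.

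Of the 135 hILO peaks, 13 on 8 genes were covered in all 3 earlier stages (9.63%, beside 31.7% over coding peaks of hILO). They were 4 on SCN8A, 2 each on CACNA1H and KCNJ10, and 1 each on CACNB2, KCNG1, KCNK5, KCNMB3 and KCNMB4, and all 13 held a DRACH. Their log2 enrichments in the 4 stages lay between 0.79 and 3.32. Their medians in stage order were 2.03, 1.76, 1.98 and 1.76.

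SCN8A, a sodium channel of axons and islets, had the most peaks of the set, 42 over the 6 lists. A peak over an exon junction 4317 bases before the stop codon was at 2.94 ± 0.17, 2.37 ± 0.26, 2.77 ± 0.26 and 1.80 ± 0.20 from hPSC to hILO. A peak across the stop codon was at 2.03 ± 0.26, 1.76 ± 0.33, 2.35 ± 0.80 and 2.04 ± 0.29. Its values in hPSC, DE and hILO lay within their counting errors of each other. The PP value rested on 3 input reads, and a second PP peak inside the same hILO peak had 24 input reads at 1.23 ± 0.34. KCNMB4, a subunit of large-conductance calcium-activated channels, had a 3′UTR peak at 2.08 ± 0.08, 2.13 ± 0.07, 1.35 ± 0.26 and 1.83 ± 0.16. KCNG1, a modifier that forms channels only with other Kv subunits, had one next to the stop codon (chr20:51003781-51004105) at 2.74 ± 0.17, 0.79 ± 0.12, 2.02 ± 0.15 and 1.38 ± 0.24. Its DE value was below the other 3 by more than the counting errors. In KCNK5, an acid-sensitive background channel, the peak across the end of the coding sequence was at 2.32 ± 0.07 in hPSC and 0.86 ± 0.09 in hILO. CACNA1H, another T-type calcium channel, kept a coding peak at 1.19 ± 0.12, 2.38 ± 0.06, 1.98 ± 0.31 and 1.76 ± 0.05, highest in DE.

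Other channels had peaks in several stages. KCNS3, another such modifier, had 5, 5, 1 and 3 peaks from hPSC to hILO, with 1060, 1050, 9 and 5167 input reads. KCNT2, a sodium-activated channel, had one coding peak in each stage that lay within the same 275 bases, at 1.71 ± 0.28, 1.84 ± 0.38, 3.16 ± 0.35 and 1.84 ± 0.13. KCNJ13 had in PP and hILO a peak at its stop codon, at 2.34 ± 0.48 and 1.83 ± 0.10. Its only peak in hPSC and DE, found in PP too, had just 20 bases on an exon of KCNJ13, at the 3′ end of the gene. Without such peaks of under 50 exonic bases, 6 in all, KCNJ13 was not in every list, and 13 genes were in all 6 lists and 16 in all 4 stages. KCNIP4 had a coding peak over a junction at 1.59, 1.38 and 2.06 in hPSC, DE and hILO, and in PP a shorter peak of 50 bases inside it, at 1.29 ± 0.17. CACNB2 and CACNB3, cytoplasmic subunits that carry calcium channels to the membrane, had 317 and 128 input reads in PP and 790 and 116 in hILO. CACNG4, a γ subunit, had peaks in its 3′UTR in hPSC (3), PP (2) and hILO (4), and none in DE. KCNH8 had 1, 6, 1 and 2 peaks, and KCNMB3 had 5, 5, 5 and 3, many of them in exons it shares with another gene.

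**Figure D3:**
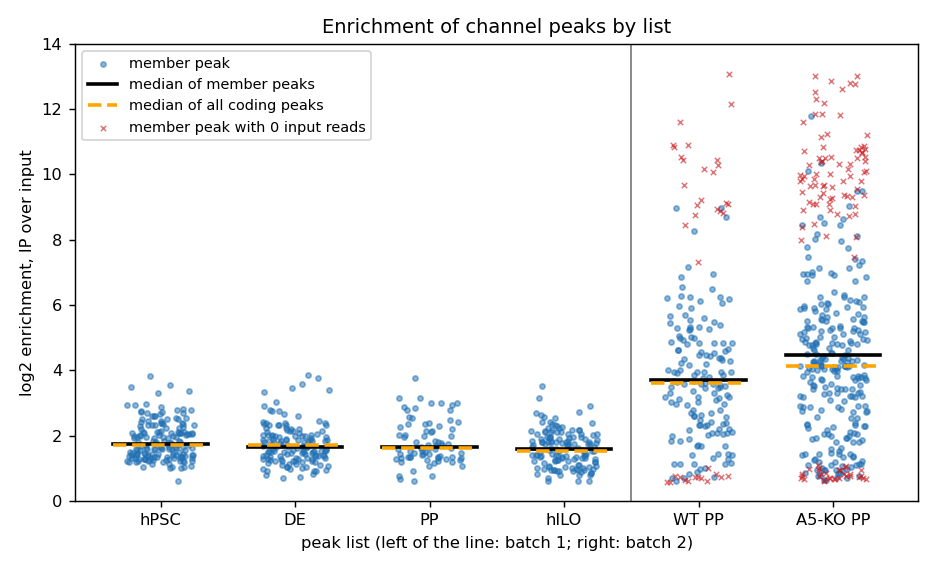
Log2 enrichment of IP over input for every channel peak in each population (points), with the channel median and the median over all coding peaks (lines). The channel medians lie between 1.59 and 1.75 in the 4 stages and reach 3.71 for WT PP and 4.48 for A5-KO PP.

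How strongly channel peaks were enriched differed little from other transcripts within a list. The median log2 enrichment of channel peaks in stage order was 1.75, 1.65, 1.64 and 1.59, and over all coding peaks it was 1.72, 1.71, 1.62 and 1.52. Channel transcripts were covered less: their peaks had a median of 37, 64.5, 45 and 252 input reads, beside 71, 109, 93 and 311. Where a peak had 50 input reads or more, the highest enrichment was on SCN8A in hPSC (2.94), KCNH5 in DE (2.92), SCN9A in PP (3.14) and KCNK13 in hILO (2.41). In batch 2 it was on KCNA4 in WT PP (6.94) and KCNT2 in A5-KO PP (7.36). The batch 2 medians, 3.71 and 4.48 beside 3.61 and 4.14 over coding peaks, also take in peaks without a single input read, 37 of the 188 peaks of WT PP (19.7%) and 111 of the 372 of A5-KO PP (29.8%), whose deposited enrichments were either 0.59 to 1.08 or 7.33 to 13.07. Those values are not folds.

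Along the transcripts, the channel peaks lay mostly in coding sequence and 3′UTR. With the midpoint placed on the longest coding isoform, 44.3% were in the coding sequence in hPSC (36.6 to 52.3) and 37.8%, 58.7% and 53.9% in the later stages, beside 50.8%, 48.8%, 54.0% and 51.7% over coding peaks. The DE interval for channels (29.6 to 46.8) lay below the value of all coding peaks, and those of the other 3 stages held it. By any overlap with the coding sequence in place of the midpoint, the DE channel share was higher, as given below. That share was not computed over all coding peaks. Within 200 bases of the stop codon lay 24.2%, 26.1%, 22.2% and 28.7%, beside 19.6%, 20.8%, 19.2% and 20.5%. The hILO interval for channels (21.2 to 37.5) did not hold the value of all coding peaks, and those of the other stages did. All these intervals count peaks of the same gene as separate and are therefore too narrow for a test, and none was made. In batch 2, 47.3% were in coding sequence for WT PP (40.0 to 54.8, beside 47.2% over coding peaks) and 69.0% for A5-KO PP (63.4 to 74.1, beside 54.5%), and 42.0% and 23.6% in the 3′UTR. With any coding isoform, and over all channel peaks in place of the placed ones, the A5-KO PP share in coding sequence was lower, as given below. By family over the 4 stages, 20 of 21 placed peaks of γ subunits (95.2%) and 9 of 9 of sodium channel β subunits were in the 3′UTR, whereas 31 of 47 of calcium channel pores (66.0%) and 39 of 64 of sodium channel pores (60.9%) were in coding sequence. Of the new hILO peaks that could be placed on the MANE Select transcript, 14 of 59 were within 200 bases of the stop codon, and of the other hILO peaks 20 of 56.

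**Figure D4:**
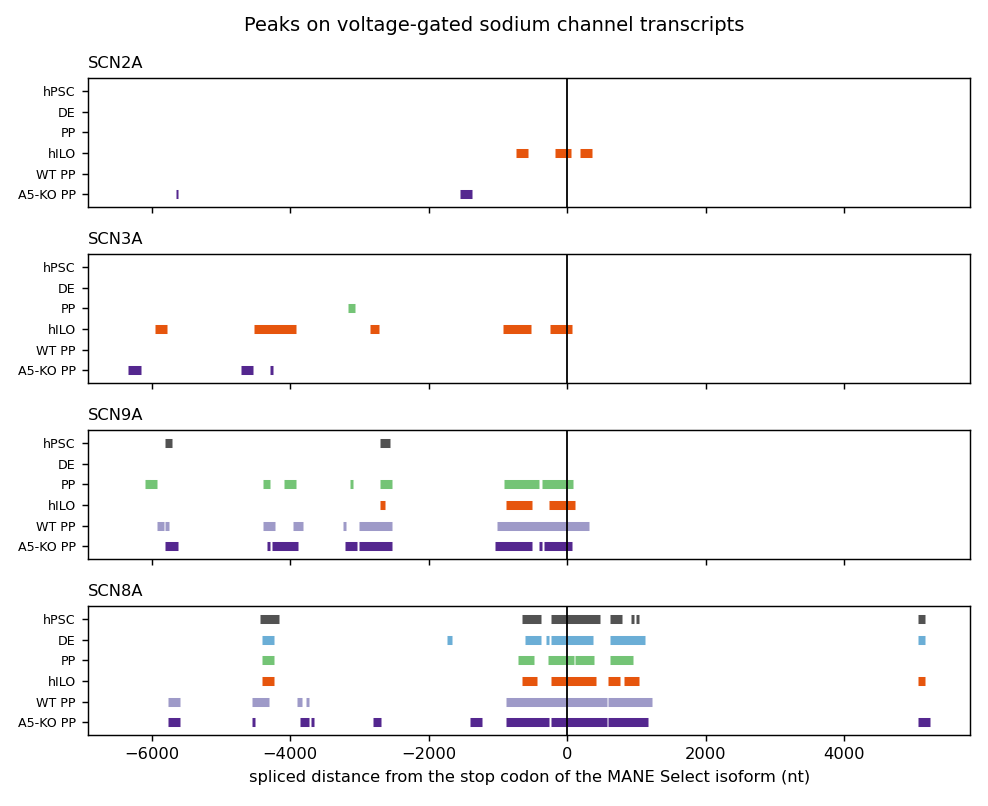
Channel peaks along 4 sodium channel transcripts, each bar centred on the midpoint of a peak and as long as its exonic bases, as spliced distance from the stop codon in bases (negative is coding side), by population. In hILO, SCN2A has all 3 peaks centred between 657 bases before and 268 after the stop codon, and SCN3A has coding peaks centred up to 5862 bases before it.

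The sodium channel pores showed this spread within one family. In hILO the SCN2A peaks were centred 657 and 57 bases before the stop codon and 268 after it. SCN9A had peaks 2665, 698 and 73 bases before it. SCN3A had 5 placed peaks, 5862, 4217, 2779, 724 and 86 bases before it, and so none in the 3′UTR. SCN8A had 2 coding peaks, 4317 and 544 bases before it, and 4 after it, 94 to 5119 bases away. SCN2A, SCN3A, SCN9A, SCN7A and SCN1A lie close together on chromosome 2 and differed in when they had peaks: SCN2A and SCN7A among the stages in hILO alone, SCN3A in PP and hILO, SCN9A in hPSC (2), PP (8) and hILO (3), and SCN1A in none of the 4. SCN9A had 1085 input and 5481 IP reads in PP, and its peak at the end of the coding sequence was at 3.00 there and at 2.17 in hILO.

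The DRACH motif was present in 95.1%, 87.1%, 86.8% and 96.3% of channel peaks from hPSC to hILO, beside 90.7%, 91.0%, 89.0% and 93.1% over coding peaks. On the transcript strand, DRACH matches per 1000 bases were 1.25, 1.33, 1.35 and 1.36 times as frequent inside channel peaks as in the rest of the same genes' exons. For GGAC, some of whose matches are also DRACH matches, the ratios were 1.82, 1.53, 1.57 and 1.64. In WT PP and A5-KO PP they were 1.27 and 1.14 for DRACH, and 1.61 and 1.15 for GGAC. Both ratios were lowest in A5-KO PP.

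The A5-KO PP list held many more channel peaks than WT PP. Of its 97 genes, 35 had no peak in WT PP (36.1%, beside 18.2% over all coding genes), and 4 genes had a peak in WT PP and none in A5-KO PP. Of 117 genes, 16 had a peak in A5-KO PP and in no other list (13.7%, beside 8.14% over all coding genes), among them KCNH1 with 10 peaks, CACNB4 with 6 and KCNA2 with 4. Of the channel peaks of A5-KO PP, 55.9% ran over several exons, beside 18.1% in WT PP and 33.4% over all coding peaks of A5-KO PP. No counterpart in WT PP was found for 268 (72.0%, beside 46.8% over coding peaks). Of these, 185 ran over several exons (69.0%, beside 47.4%), 87 had no input read (32.5%, beside 23.5%), and 99 had at least 50. Their median genomic span was 12561 bases. The 103 WT PP peaks without a counterpart in A5-KO PP (54.8%, beside 49.9%) had a median span of 175 bases, and 17 had no input read. With 1 pooled list per genotype, a difference in genotype and a difference between libraries cannot be told apart.

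Where over 50% of the exonic bases of an A5-KO PP peak were covered in WT PP, enrichment differed either way. There were 104 such pairs on 46 genes, with 86 distinct WT PP peaks. The WT PP peak could be much longer, as on KCNS3 with 875 exonic bases beside 75. Fewer pairs overlapped over more than 50% of both peaks, as given below. In 38 of them a list had no input read, and the fitted values there set the difference. In A5-KO PP, 44 of the 104 were higher by at least 1 on the log2 scale (42.3%, beside 36.8% of all coding pairs) and 32 lower (30.8%, beside 28.3%), and the median difference was 0.33 (0.22 over coding pairs). Among the 66 with an input read in both, 24 were higher (36.4%, beside 31.2%) and 22 lower (33.3%, beside 26.1%), with a median difference of 0.22 (0.12 over coding pairs). With a minimum of 50 input reads on either side, 32 pairs on 22 genes were left: 7 were higher (21.9%, beside 22.7%) and 11 lower (34.4%, beside 20.9%), with a median difference of -0.36 (0.01 over coding pairs). The sign of the median thus turned with the read minimum.

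Among these better covered pairs, the largest falls were on SCN8A, KCNH8 and KCNA6. The SCN8A peak across the stop codon was at 4.83 in WT PP but 1.39 in A5-KO PP, a difference of -3.44 ± 0.30. The WT PP peak here was longer and also contained a second A5-KO PP peak, in the coding sequence, at 3.84. KCNH8, a Kv channel of the ELK type, had a coding peak over a junction at 5.91 and 2.53, a difference of -3.38 ± 0.13. KCNA6, a Kv1 channel, had a 3′UTR peak at 4.83 and 1.53, a difference of -3.30 ± 0.21. The 3 largest rises were all on KCNS3. Its peak just after the stop codon was at 5.53 in A5-KO PP inside a long WT PP peak at 1.13 (4.39 ± 0.15). Another A5-KO PP peak inside the same WT PP peak was at 3.52 (2.38 ± 0.13). The third, over 3 exons within chr2:17932861-18318732, was at 4.80 beside 2.21 (2.60 ± 0.22). Its WT PP partner ran over 2 exons and ended at 18170466. The midpoint of the A5-KO PP peak lay on neither the longest coding isoform nor MANE Select. Beyond these, CACNA1H rose by 1.41 ± 0.07 in a coding peak close to the stop codon and KCNJ10 by 1.72 ± 0.25. KCNH2 differed by -1.65 ± 0.14 and KCNK5 by -2.52 ± 0.27. These errors cover counting in the pooled reads and no spread between cultures.

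**Figure D5:**
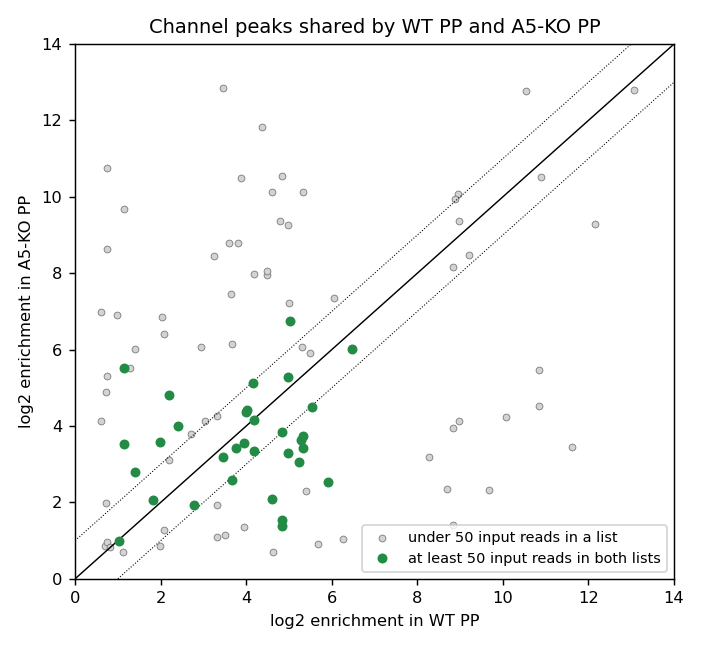
Log2 enrichment in WT PP (x axis) and A5-KO PP (y axis) for the 104 channel peak pairs, 38 of which lack input reads in a list, with the 32 that have 50 input reads or more on either side set apart and lines at a difference of 1 either way. Of these 32, 11 fall below the lower line and 7 above the upper one.

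PP and WT PP are the same stage in the 2 batches. Of the 76 channel peaks of PP, 44 were covered in WT PP (57.9%, beside 60.5% over coding peaks), and of the 188 of WT PP, 16 were covered in PP (8.51%, beside 23.6%). Of 72 genes in either list, 29 were in both (40.3%, beside 68.7% over all coding genes), 6 in PP alone (8.33%, beside 7.19%) and 37 in WT PP alone (51.4%, beside 24.1%). In the 44 shared peaks the median log2 enrichment was 1.90 in PP and 4.83 in WT PP, and 37 were higher in WT PP. For 12 of the 44 WT PP had no input read, and in the other 32 the medians were 1.77 and 4.41, with 27 higher in WT PP. RNA, antibody, library kit and experiment differ between the batches and cannot be told apart.

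Beyond the channels, a list of 34 other genes of membrane excitability and calcium release had 26, 18, 16 and 22 genes with a peak from hPSC to hILO, and 20 and 28 in WT PP and A5-KO PP. In percent these were 76.5, 52.9, 47.1 and 64.7 in the stages, beside 58.1, 54.8, 49.9 and 55.6 over all coding genes, which were lowest in PP as well. Of its 22 genes in hILO, 5 had no earlier peak (22.7%, beside 6.98%): ABCC8, the sulfonylurea receptor of the ATP-sensitive potassium channel (4 peaks, 1125 input reads), ITPR1, an endoplasmic calcium release channel (3 peaks, 3122), RIMBP2, which ties calcium channels to vesicle release sites (4 peaks, 2968), UNC80 (1 peak, 81), and TRPM4, a calcium-activated cation channel (2 peaks, 164). Of 26 genes of the list with an earlier peak, 9 had none in hILO (34.6%, beside 22.2%), among them NALCN, a sodium leak channel, and UNC79, which belongs to the same complex.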

How the data were processed

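Peak lists of 6 populations were analysed, each from 2 IP and 2 input libraries of MEL1 INS GFP/W cells. The authors trimmed reads with fastp, aligned them with HISAT2 to GRCh38 (hg38) and called peaks with exomePeak2 on the replicates together. Their methods set p below 1e-05, and the deposited lists hold weaker peaks too, which were kept here. The deposited input and IP counts are pooled values, and whether they are sums or means is not given in the sources used here. The deposited log2 enrichment comes from the peak caller's fit, and the deposited p-values were used to rank peaks only. HOMER was also named in the submitters' processing notes.

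Peaks were placed on GENCODE 44 exons with Python 3.11.15, pandas 2.3.3 and numpy 2.4.6, intervals were made with statsmodels 0.14.6 and figures with matplotlib 3.10.9. A peak was found again where over 50% of its exonic bases were covered on the same strand by 1 peak or more of the other list. The counting error is that of a log2 ratio of 2 Poisson counts with 0.5 added to each. No model across genes was fitted, because no file holds values per library. Regions were placed by peak midpoint. The overlap and count steps were tested on simulated peaks.

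Members and lists were chosen with earlier results of these data known. Named genes were the 10 onset genes with the most hILO reads per kilobase, genes on all 6 lists, the 10 with the most peaks, a list of islet channels, the 3 largest rises and falls from WT PP to A5-KO PP at 50 input reads, the 5 lost genes with the most reads, and the gene of highest enrichment in each list. Others were chosen after their values were seen. KCNJ11 was left out. Some genes taken by these rules are not reported here.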

Additional observations from a re-analysis of the deposited data

How the results depend on the processing

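Of 304 values recomputed under other settings, 230 kept their direction and moved little, 72 moved and 2 turned sign. The number of onset transcripts was 10 to 19. Over the 12 settings with a count of hILO genes of their own, this was 21.7 to 41.3% of the channel genes in hILO, beside 6.98 to 19.6% of all coding genes, but not always the same genes: 8 of the 14 were left at p below 1e-10 and at IP/input of at least 3. The count of channel peaks in hPSC, DE, PP, hILO, WT PP and A5-KO PP became 82, 63, 32, 127, 107 and 211 at p below 1e-05. At p below 1e-10 it became 40, 38, 22, 69 and 100, and 79 in hILO. An IP/input minimum of 3 gave 98, 76, 42 and 68 from hPSC to hILO, and 41 new hILO peaks. With at least 50 input reads it became 72, 78, 36, 112, 105 and 140 in the same order. In A5-KO PP it became 213 with at least 10 input reads, 206 with lists cut to the smallest and 164 with peaks in 1 exon, a setting chosen after seeing the data. Genes with a peak became 23 in PP at p below 1e-05, 22 in PP at IP/input of at least 3, and 29, 29, 16 and 58 in hPSC, DE, PP and A5-KO PP at p below 1e-10.

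Median log2 enrichments became 2.12 (PP), 4.62 (WT PP) and 5.76 (A5-KO PP) at p below 1e-05, and 1.87 (DE), 2.17 (PP), 1.73 (hILO), 4.48 (WT PP) and 5.14 (A5-KO PP) at p below 1e-10. With that ratio at 2 or more they were 1.75 (hILO), 3.98 (WT PP) and 4.95 (A5-KO PP), and at 3 they were 2.09, 2.01, 2.18, 1.96, 4.33 and 5.26 in hPSC, DE, PP, hILO, WT PP and A5-KO PP. WT PP and A5-KO PP had 3.51 and 3.94 with at least 10 input reads, and 4.64 and 5.71 with lists cut to the smallest, while hILO and A5-KO PP had 1.43 and 3.85 with at least 50 input reads. Of the WT PP and A5-KO PP pairs, 66 remained with an input read in both (24 higher, 22 lower, a setting chosen after seeing the data), 49 with at least 10 input reads in both (15 higher, 15 lower, median -0.016), 32 with at least 50 (7 higher, 11 lower, median -0.36) and 57 where over 50% of both peaks overlapped (25 higher, 17 lower), so the median turned sign at both read minimums. The share in coding sequence became 47.1% in DE and 56.2% in WT PP by any overlap, and 58.6% in A5-KO PP with any coding isoform. GGAC in place of DRACH gave ratios of 1.82, 1.53, 1.57, 1.64 and 1.61 in hPSC, DE, PP, hILO and WT PP. The thresholds on p, ratio and reads leave fewer peaks by construction, and the cause of these moves was otherwise not tested.

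No paired analysis was possible because each list holds pooled counts and carries no replicate numbers, and for the same reason no library was left out. Depth limits what is listed: channel peaks had a median of 20.5 to 252 input reads by list, and a transcript without a peak is not shown to lack m6A.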
